A study of Mus musculus with 96 samples.

Results

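Viewpoint 11 is the HindIII fragment at 154.9 Mb of mouse chromosome 4 from which allele-specific captures were read, the closest of the tested viewpoints downstream of an engineered deletion. The libraries described here are those of its 129S5 allele, chosen by their labels, and they are 4 of the 96 libraries of the series. They comprised 2 libraries of the deleted chromosome (Df, from the MEF lines 129S5E71 and 129S5E98, called E71 and E98 below) and 2 of the intact chromosome (+129, from lines 129S5E117 and 129S5E118, called E117 and E118). The 4 C57Bl6 libraries read from the same cells at the same viewpoint, +DBl6 (the intact homolog in the deletion lines) and +Bl6 (the homolog in the control lines), served as a reference for an intact chromosome.

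The cells were mouse embryonic fibroblasts (MEFs) cultured from embryo bodies at 13.5 days and were fixed at confluency at passage 4. Lines E71 and E98 were df/+Bl6, so the deletion in band 4E2 was heterozygous and always lay on the chromosome of 129S5 origin. Lines E117 and E118 were +129/+Bl6 and carried no deletion. The deletion lines came from a cross of male chimeras with C57BL6/J females, and these fathers carried a deletion and a reciprocal duplication (Df/Dp). For its controls the study names F1 +129/+Bl6 crosses. The label names no treatment, and Df and +129 never occurred in the same cells. Each chromosome thus rested on 2 cell lines, and the labels do not say whether the lines came from different litters. The libraries hold genomic DNA, so the fibroblast label could not be checked against expressed markers. The PCR products of E71 and E117 were purified with a column kit and those of E98 and E118 with beads, so each purification held 1 line of each genotype.

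In PE-4Cseq, chromatin is fixed, cut with HindIII and ligated, and the sequences joined to a chosen viewpoint fragment are amplified by inverse PCR and counted as captures. A captured fragment is taken to have been near the viewpoint in the nucleus at the time of fixation, although single captures can be errors. Capture frequency generally falls with distance along the chromatin fiber. A deletion shortens that distance for the sequences beyond it, and the sequence it removes can no longer be captured on the same chromosome. The mouse region is orthologous to human 1p36, whose terminal loss causes monosomy 1p36, a syndrome with intellectual disability, heart defects and cleft palate.

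The viewpoint fragment spans chr4:154930008-154951841 of mm9 (NCBIM37), 21834 bases that overlap Gnb1, which encodes a G protein beta subunit, and Nadk, the NAD kinase that makes NADP. The sequences below are shown because they decide which chromosome a read was given to. The reading primer ends directly before a strain polymorphism, and the read then crosses 22 bases to the end of the HindIII site and enters the captured fragment. The first 2 are primers, and the last 2 are the plus strand from the polymorphism to the site (chr4:154951820-154951841), with the polymorphic base and the HindIII site in capitals.
Reading primer: ctcattcctggagacaataaccac
Second primer: caaaactcacactaagcaatgatgatc
C57Bl6 end: GctaagtcttttatggAAGCTT
129S5 end: ActaagtcttttatggAAGCTT
The substitution is G154951820A, with the mm9 base first, the chromosome 4 position counted from 1, and the 129S5 base last. The reading primer matched chr4:154951796-154951819 on the plus strand and the second primer chr4:154951383-154951409 on the minus strand. The allele therefore rests on 1 base at the start of the viewpoint read.

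The deleted interval was located without the libraries of viewpoint 11, as the stretch where Df captures of viewpoints 1, 2 and 12 gave way to those of +129. It ran over chr4:150081026-154411694, a length of 4.33 Mb that holds 47 protein-coding genes among 78 genes of all kinds and is cut by HindIII into 1109 fragments. Df libraries supplied 7.74% of the captures inside it (154 of 1990) and 45.9% of those outside (1944 of 4236). On the intact chromosome the viewpoint fragment lay 518 kb from the downstream end of the interval and 4.85 Mb from its upstream end, and 678 kb remained to the end of the chromosome. The last 30 bases of 2 fragments are shown because they mark the boundaries, with the HindIII site in capitals. The first fragment was assigned to the retained sequence, and the second is the last one assigned to the deleted interval.
Last fragment before the interval (chr4:150080996-150081025): ctccgctgctccagtgccccccacAAGCTT
Last fragment of the interval (chr4:154411665-154411694): gaaagcatctctgtaaacaagactAAGCTT
The boundaries are known to the fragment at best, and no interval was put on their positions. The upstream one moved to 150083826 when viewpoint 11 was added to the search.

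Total reads on chromosome 4 ranged from 2341811 to 3969613 over the 8 libraries of viewpoint 11. The viewpoint fragment itself took 58.9% to 86.4% of the reads of the 129S5 libraries. All shares below were taken over the reads more than 20 kb from that fragment. These numbered 335062 in Df E71, 453832 in Df E98, 292469 in +129 E117 and 846398 in +129 E118, with 1395, 1986, 1479 and 3844 fragments of at least 5 reads, here called captured fragments. Intervals on single shares are 95% Wilson intervals. They cover at most counting error, and are too narrow even for that, because PCR copies of one ligation product were counted as separate reads.

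The library labelled +129 E117 stood apart from the other intact libraries and resembled Df E71. On the chromosome before 140 Mb, 64.0% of its 923 captured fragments, with 88.0% of their reads, were also read in Df E71, against 28.0% in Df E98 and 37.8% in +129 E118. In the other direction, 76.7% of the 868 captured fragments of Df E71 were also read in +129 E117 and 27.1% in Df E98. Df E98 and +129 E118 shared less, with 39.3% of the 1294 captured fragments of Df E98 read in +129 E118 and 27.2% of the 2606 of +129 E118 read in Df E98. Libraries of both alleles of 1 line also overlapped, as 70.9% of the captured fragments of Df E98 were read in +DBl6 E98. Values are therefore given by line, and comparisons were read from Df E98 against +129 E118 beside the C57Bl6 libraries. The 5 intact libraries other than +129 E117 are called the 5 intact libraries below. The C57Bl6 libraries of these 2 lines also shared fragments, with 77.3% of the 1017 of +DBl6 E71 read in +Bl6 E117 and 64.3% of the 1049 of +Bl6 E117 read in +DBl6 E71. Both are intact chromosomes and stayed among the 5, which therefore count as fewer than 5 independent measurements. The part of this sharing in the values of E71 and E117 was not tested.

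**Figure D1:**
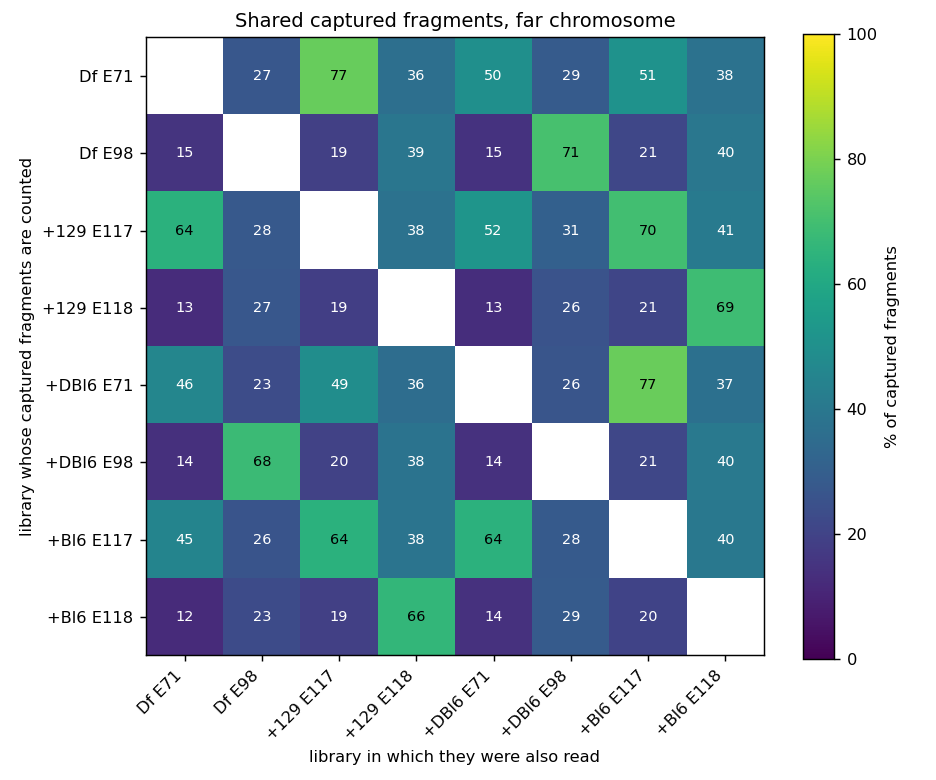
Percent of the captured fragments (at least 5 reads) of the library on the vertical axis, before 140 Mb of chromosome 4, that had at least 1 read in the library on the horizontal axis. Df E71 and +129 E117 shared 77% and 64%, whereas Df E98 and +129 E118 shared 39% and 27%. Both alleles of a line shared 46% to 71%.

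Captures from the deleted interval served as a check of the labels. The interval was located by low Df captures of the same lines at other viewpoints, so a low Df share was largely given in advance. The interval held 0.620% of the reads of Df E71 and 0.833% of Df E98 (Wilson interval 0.807% to 0.860%). It held 1.71% in +129 E117 and 7.94% in +129 E118 (7.88% to 7.99%), and 6.65% to 7.71% in the 4 C57Bl6 libraries. Both Df lines lay below every intact library. The library +129 E117 lay between them and the rest, so the check did not settle its label. The exact two-sided permutation test over the 2 Df and 2 +129 lines gave p = 0.333, the smallest value that 2 against 2 allows. Df E98 held 0.105 times the share of +129 E118, and the C57Bl6 chromosomes of the same lines differed 0.951-fold.

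The reads that Df libraries still held in the deleted interval were few, and most fell on fragments also read in intact libraries. Df E71 had 2079 reads there on 135 fragments, against 28385 for +DBl6 E71 (7.32%). Df E98 had 3781 reads on 296 fragments, against 33859 for +DBl6 E98 (11.2%). Of the Df E71 reads, 97.5% lay on fragments read in +DBl6 E71, and the share was 90.6% in E98. This was not particular to the same cells. Captured fragments of Df E98 that were also read in +DBl6 E98 held 81.7% of its interval reads. The other intact libraries gave 69.5% to 87.3%. For Df E71 the share was 87.9% with +DBl6 E71 and 88.5% to 89.9% with the other intact libraries. At the 20 interval fragments with most reads in +DBl6, Df held 0.862% as many reads in E71 and 5.62% in E98. The residual was thus uneven along the interval, and in Df E71 its top 5 fragments held 63.3% of it.

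Levels at the named genes of the deleted interval were compared next. A locus is the gene with 10 kb on each side, and its level is given in RPM, reads per 1000000 reads outside the viewpoint zone. It measures contact with the viewpoint, not expression, and it was not divided by length, so levels are compared between libraries and not between genes. Over the 162 protein-coding loci from 4 Mb upstream of the interval to the chromosome end, both Df lines lay below the 5 intact libraries at 56 (34.6%) and above them at 19 (11.7%). In the interval it was 42 of 47 below and 0 above. The median locus there stood at 11.9 RPM in Df E71, 79.3 in Df E98 and 1141 in +129 E118.

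Prdm16, a transcriptional regulator of brown fat and heart muscle and a 1p36 candidate gene, lay at 1958 RPM in Df E71, 602 in Df E98, 3949 in +129 E117 and 12098 in +129 E118. Its C57Bl6 levels were 7610 to 10172 RPM, so Df stood below all the intact libraries. Camta1, a calcium-responsive transcription factor of the nervous system, lay at 367, 1318, 1723 and 10184 RPM in the same order, against 7255 to 11161 on C57Bl6. Kcnab2, a potassium channel subunit, lay at 3.0 and 26.4 RPM in Df and at 829 in +129 E118. At this gene +129 E117, with 27.4 RPM, was as low as the Df lines. Of the 4 deleted tumour suppressor candidates, Chd5, Trp73, Errfi1 and Ajap1, 4 lay below the 5 intact libraries in both Df lines. Trp73, a relative of p53, had 158 and 227 RPM in Df and 2468 in +129 E118. The 3 deleted Hes genes, which encode transcriptional repressors, and the 3 deleted TNF receptor genes gave the same count, 3 of 3 each. Park7, a deleted gene near the upstream boundary, did not meet it, with 14.9 and 2.2 RPM in Df and 5.9 in +DBl6 E98, where its captures were as few. Loci near one another share fragments, so these counts are not independent.

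The flank upstream of the deletion was the sequence that the deletion brought closer to the viewpoint, and it asked whether the viewpoint captured it more often. Its 4 Mb held 9.91% of reads in Df E71, 7.67% in Df E98, 8.11% in +129 E117 and 4.39% in +129 E118. The 4 C57Bl6 libraries held 3.94% to 4.45%. Df E98 held 1.75 times the share of +129 E118, with Wilson intervals of 7.59% to 7.75% and 4.35% to 4.44%, and the C57Bl6 chromosomes of these lines differed 0.954-fold. The means were 8.79% ± 1.58 and 6.25% ± 2.63 (SD, n = 2 each), and the exact permutation test gave p = 0.667, as +129 E117 lay above Df E98. By captured fragments in place of reads the flank held 16.0% of those of Df E98 (317 of 1986) and 9.24% of those of +129 E118 (355 of 3844).

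The excess was concentrated next to the deletion. In the 0.25 Mb nearest to it, Df E71 held 1.93% of its reads, Df E98 1.53%, +129 E117 1.31% and +129 E118 0.409%, and the C57Bl6 libraries held 0.227% to 0.324%. Df E98 stood at 3.73 times +129 E118 there, at 3.23 times from 0.25 to 0.5 Mb, at 2.37 times from 0.5 to 1 Mb and at 1.77 times from 1 to 2 Mb. From 2 to 4 Mb it was 0.685 times, with 1.09% against 1.60%. The C57Bl6 chromosomes of the same 2 lines differed by 0.817-fold to 1.15-fold over these 5 distances. In each of the first 4 both Df lines lay above all of the 5 intact libraries, and from 2 to 4 Mb both lay below them. In captured fragments the last distance class overlapped, with 2.97% for Df E98 and 3.15% for +129 E118.

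**Figure D2:**
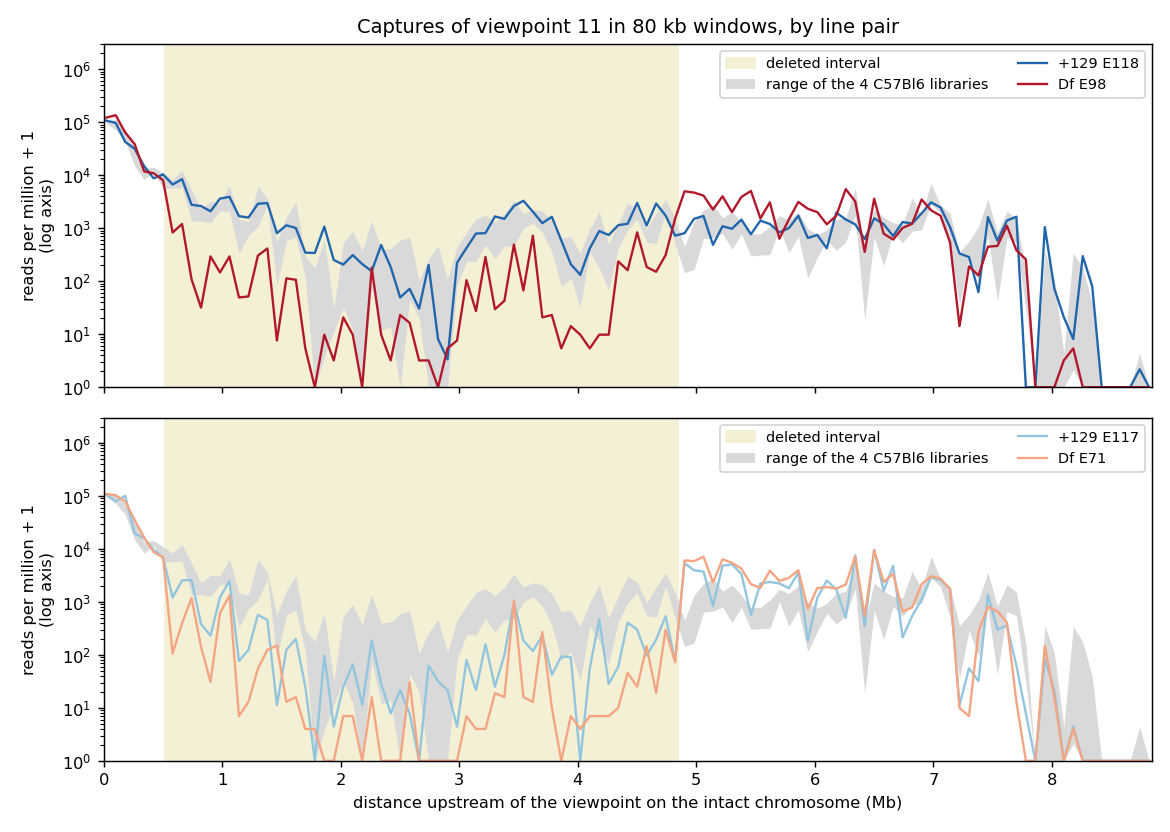
RPM (plus 1, log axis) in 80 kb windows against the distance upstream of viewpoint 11 on the intact chromosome, with Df E98 and +129 E118 above and Df E71 and +129 E117 below. Grey is the range of the 4 C57Bl6 libraries and yellow the deleted interval. Df E98 lay under +129 E118 in 51 of 54 windows of the interval and over it in 11 of the 12 windows of the first Mb beyond it, and +129 E117 followed Df E71.

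Counted in 80 kb windows, both Df lines lay above the 5 intact libraries in 9 of 12 windows of the first Mb of the flank. The count was 5 of 13 windows from 1 to 2 Mb and 1 of 25 from 2 to 4 Mb. Over all 1773 windows of chromosome 4 with reads it was 70 (3.95%). Df E98 lay above +129 E118 in 11 of the 12 windows of the first Mb, and +DBl6 E98 lay above +Bl6 E118 in 4 of them. The median window of that Mb held 4051 RPM in Df E71, 3489 in Df E98, 2858 in +129 E117 and 1046 in +129 E118, and medians of 510 to 1024 RPM in the C57Bl6 libraries.

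Single HindIII fragments were counted in the same way, but these counts cannot show whether the flank stood apart. Only fragments with at least 5 reads in both Df lines entered, so the choice itself favored high Df levels. Of the 164 flank fragments captured in both Df lines, 80 (48.8%) lay above the 5 intact libraries in both. The share was 33.6% of 509 over the whole chromosome, 26.4% of the 345 outside the flank, 4.40% of 182 on the retained downstream side and 58.0% of 138 before 140 Mb. Of the 164, 104 were also captured in +129 E118, and 1 was captured in none of the 5 intact libraries.

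The fragments with most reads in Df E98 within the flank are shown because they were captured next to the deletion and because 1 of them is the boundary fragment printed above. The ends below are the last 30 bases of the first and the second, with the HindIII site in capitals.
First (chr4:150065295-150065324): actgggctctgtcttccattctggAAGCTT
Second (chr4:150063679-150063708): ttaacgggtgcgtaagacattgatAAGCTT
The first, chr4:150063709-150065324, lay 15.7 kb from the interval in no annotated gene and had 672 reads in Df E98, 209 in Df E71 and 73 in +129 E118. Its level was 400.0 RPM in +129 E117, against 624 RPM in Df E71. The second, its neighbor chr4:150062508-150063708, had 635 reads in Df E98 but 3 in Df E71, 1 in +129 E117 and 110 in +129 E118. The third was the last fragment before the interval, chr4:150079994-150081025, with 598 reads in Df E98, 19 in Df E71, 3 in +129 E117 and 0 in +129 E118. It was not particular to Df, since +DBl6 E71 had 131 reads on it. The next 2 lay in Kif1b and Pex14 and had 0 and 1127 reads in Df E71 against 569 and 558 in Df E98. These fragments were picked by their reads in Df E98, so lower counts in Df E71 follow in part from the choice.

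The 5 retained protein-coding genes nearest the upstream boundary were Slc45a1, Rere, Eno1, Car6 and Slc2a7, and both Df lines lay above the 5 intact libraries at 5 of 5. Rere, a nuclear receptor coregulator and a 1p36 candidate gene, lay at 23046 RPM in Df E71, 15724 in Df E98, 13807 in +129 E117 and 4895 in +129 E118. Its C57Bl6 levels were 4461 to 7188 RPM, so +129 E118 lay within their range and +129 E117 with Df. Slc45a1, a sugar transporter of the brain and the gene next to the boundary, lay at 504 and 734 RPM in Df, 78.6 in +129 E117 and 13.0 in +129 E118, and at 3.2 to 132 on C57Bl6. Eno1, the glycolytic enolase, lay at 4453, 1538, 4647 and 668 RPM in the order of lines used above. Both Df lines lay above the C57Bl6 levels of 262 to 680 RPM, and +129 E117 was the highest library. Car6, a secreted carbonic anhydrase, lay at 663, 1538, 164 and 206 RPM, and was a locus where +129 E117 lay with the intact chromosomes. Slc2a7, a hexose transporter, lay at 3429, 1437, 3101 and 748 RPM against 261 to 851 on C57Bl6.

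Farther up the flank the counts thinned out. Both Df lines lay above the 5 intact libraries at 3 of 3 coding loci within 0.5 Mb of the interval, at 7 of 8 from 0.5 to 1 Mb, at 5 of 14 from 1 to 2 Mb and at 0 of 38 from 2 to 4 Mb, or 15 of 63 in all. Of the flank genes listed for NAD and glucose metabolism and growth and reported here, H6pd and Eno1 met this, and Nmnat1, Pgd and Mtor did not. H6pd, which makes NADPH in the endoplasmic reticulum, lay at 2653, 1020, 1337 and 245 RPM in the order of lines used above. Mtor, the growth kinase, lay at 4760, 3006, 4609 and 3685 RPM, and Df E98 was the lowest library. Kif1b, a kinesin motor and tumour suppressor candidate, lay at 8363, 7100, 7796 and 2266 RPM against 3000 to 5849 on C57Bl6. Pex14, a peroxisomal import protein, lay at 11735, 4376, 11225 and 3067 RPM against 967 to 3588. Casz1, a zinc finger factor of heart development, had 4829 RPM in Df E71 but 1831 in Df E98, within the intact range of 1395 to 2567.

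**Figure D3:**
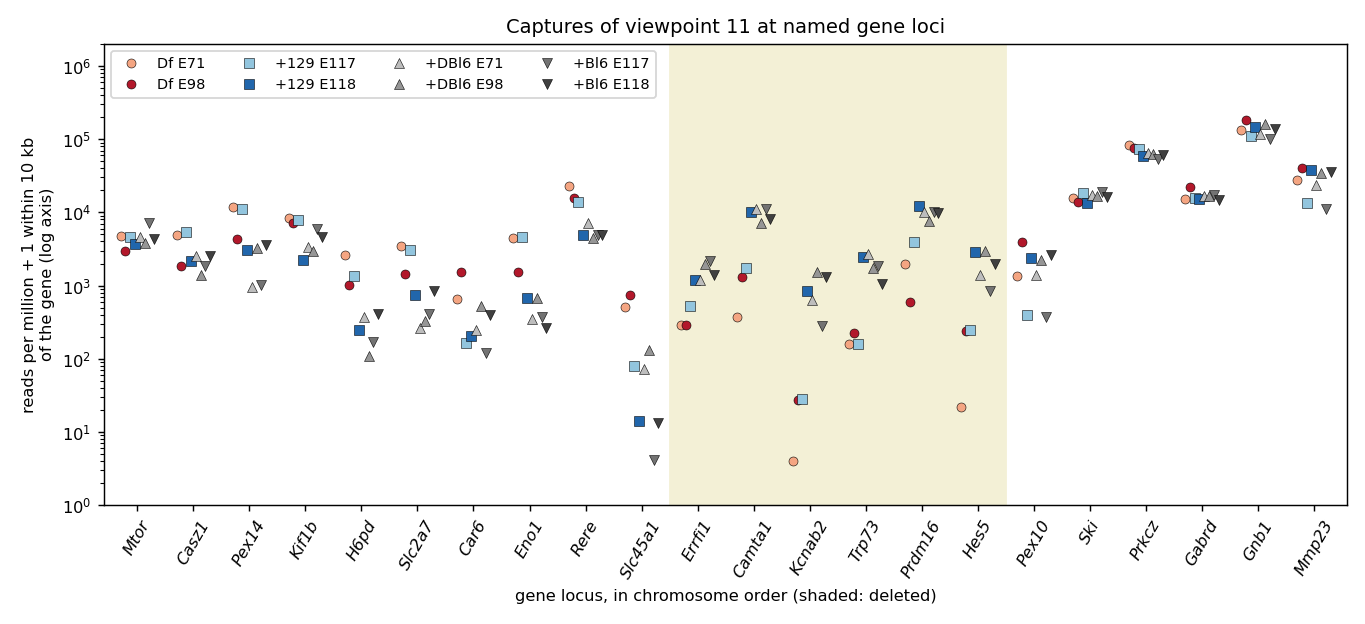
RPM (plus 1, log axis) within 10 kb of 22 named genes in chromosome order, 1 point per library, with the deleted genes shaded. At Rere the Df lines stood at 23046 and 15724 against 4895 in +129 E118, and at Camta1 at 367 and 1318 against 10184. At Ski on the retained side the Df lines stood at 15591 and 13853 against 13290 in +129 E118.

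The flank was also set against distance, because its distance to the viewpoint fell from 4.85 Mb to 0.518 Mb at the near end. On the intact chromosomes that distance is occupied by the deleted sequence, so this comparison sets different sequences side by side. At 0.518 to 0.768 Mb, Df held 1.93% and 1.53% in its flank, and +129 E118 held 2.00% and the C57Bl6 libraries 1.74% to 2.09% in the distal interval. At the next 2 distances Df E71 held 1.70 and 1.32 times and Df E98 1.19 and 1.01 times the share of +129 E118, and at the nearer of these both Df lines (1.41% and 0.984%) lay above the 5 intact libraries (0.546% to 0.830%). Against the class at 1.52 to 2.52 Mb, the flank at 1 to 2 Mb from the deletion held 3.40% in Df E71 and 2.57% in Df E98, where +129 E118 held 0.475% and C57Bl6 0.382% to 0.579%. That flank stretch, with Kif1b, Pex14 and Casz1, was also read more on intact chromosomes at its own longer distance, at 1.17% or more in each of the 5 intact libraries. At 2.52 to 4.52 Mb Df E71 held 0.484 times and Df E98 0.441 times the share of +129 E118. None of these differences was tested.

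**Figure D4:**
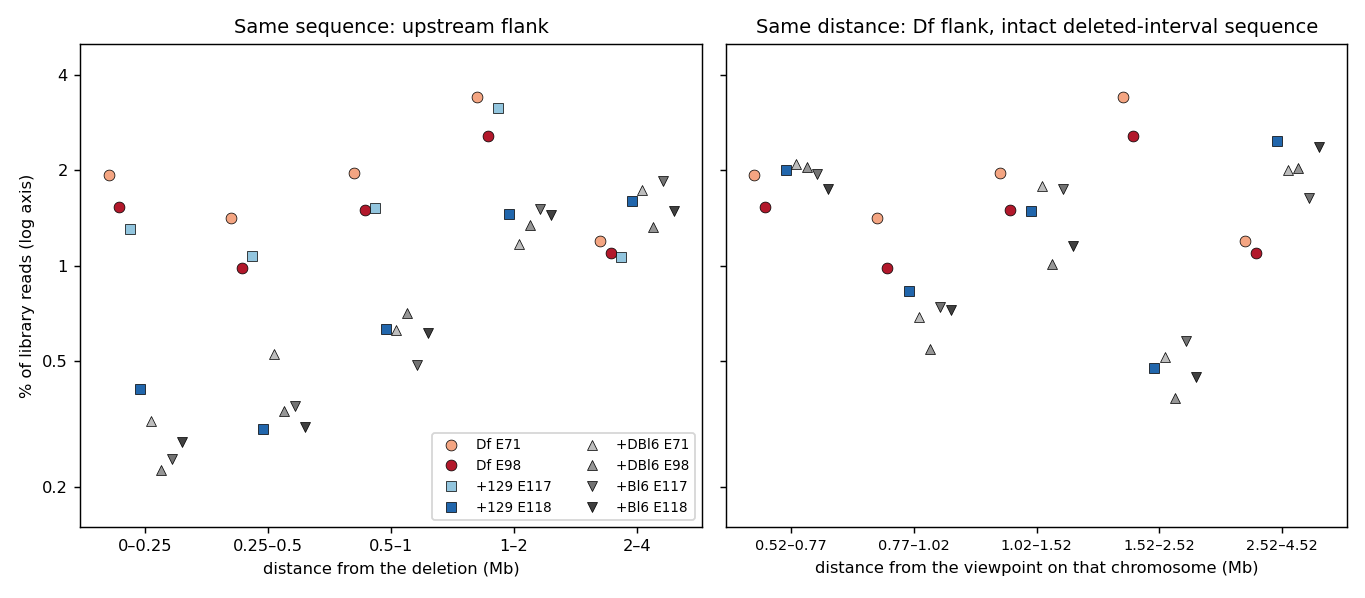
Percent of library reads (log axis) in 5 classes of the upstream flank, 1 point per library. On the left all libraries are read on the same flank sequence by its distance from the deletion. On the right the Df flank is set against the sequence at the same distance on the intact chromosomes, without +129 E117. On the left the Df lines held 1.93% and 1.53% in the nearest class against 0.409% in +129 E118, and on the right 1.93% and 1.53% against 2.00%.

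The retained downstream side, from the interval to the chromosome end, held most of the captures and differed less. It held 65.8% of reads in Df E71, 68.0% in Df E98, 68.1% in +129 E117 and 61.3% in +129 E118, and 60.5% to 64.9% on C57Bl6. The means were 66.9% ± 1.58 and 64.7% ± 4.86 (SD, n = 2 each, exact permutation p = 1.00). The shares of a library add up to its total, so a lower share of the interval leaves more for the rest. Without the interval in the denominator, the difference of the means changed from 2.24 to -0.50 percentage points.

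Taken by side, the excess of Df E98 lay upstream, between the viewpoint and the deletion. Upstream of the viewpoint Df E98 held 39.2% and +129 E118 31.1% (1.26-fold), where the C57Bl6 chromosomes of these lines differed 1.12-fold. Df E71 held 1.06 times the share of +129 E117 there. These shares, and those by distance below, keep the deleted interval in the denominator. Of the retained reads alone, the upstream side held 57.6% in Df E98 and 50.8% in +129 E118, and the downstream side 42.4% and 49.2%. From 50 to 100 kb upstream the ratio of Df E98 to +129 E118 was 1.48, but it was 1.44 for C57Bl6. Downstream of the viewpoint Df E98 and +129 E118 held similar shares of all reads, 28.9% and 30.1%. There Df E98 held 1.11 times the share of +129 E118 from 20 to 50 kb and 1.04 times from 50 to 100 kb. It held 0.802 times from 100 to 200 kb. The C57Bl6 ratios of these classes were 1.14, 0.936 and 0.986. From 200 to 400 kb downstream Df E98 held 1.66% against 2.97% (0.558-fold) and from 400 to 800 kb 0.423% against 0.824% (0.514-fold), with C57Bl6 ratios of 0.684 and 0.762. The other pair did not share this, as Df E71 held 0.977 and 1.24 times the share of +129 E117 in these last 2 classes.

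At the genes of the retained side, both Df lines lay above the 5 intact libraries at 4 of 51 coding loci and below them at 10. Of the 3 genes nearest upstream of the viewpoint, the uncharacterized C030017K20Rik and 2010015L04Rik were among the former, with 87182 and 70334 RPM in Df E98 against 64149 and 56347 in +129 E118. The nearest, Tmem52, was not, with 29233 and 46143 RPM in Df and up to 35971 in the 5 intact libraries, and neither was any of the 3 nearest downstream. Of the 5 retained genes nearest the downstream boundary, Gm10564, Pex10, Rer1, Morn1 and Ski, 0 lay above in both Df lines and 1 below. That was Gm10564, with 1203 and 1293 RPM in Df against 3143 to 4932 in the 5 intact libraries. Prkcz, an atypical protein kinase C and 1p36 candidate, lay at 84608, 76971, 73977 and 58228 RPM in the order of lines used above, against 52831 to 64514 on C57Bl6. The other 1p36 candidates overlapped between the groups. Gnb1, with part of its locus in the zone left out, lay at 133122 and 181038 RPM in Df and 110559 and 146370 in +129. Ski, a corepressor of TGF-beta signaling, lay at 15591 and 13853 RPM in Df and at 18669 and 13290 in +129. Gabrd, a GABA receptor subunit, was high in Df E98 alone (22495 RPM against 14722 to 17471 in the other 7 libraries). Mmp23, a matrix metalloproteinase, ranged from 11063 to 39880 RPM and was low in both E117 libraries. Near the chromosome end, Tnfrsf18 and Tnfrsf4, neighboring TNF receptor genes that share fragments, lay below the 5 intact libraries in both Df lines. Tnfrsf18 had 666 and 253 RPM in Df, 694 in +129 E117 and 1146 in +129 E118, and 1852 to 2088 on C57Bl6.

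The chromosome before 140 Mb held 22.6% of reads in Df E71, 22.2% in Df E98, 21.2% in +129 E117 and 24.3% in +129 E118, within the C57Bl6 range of 21.2% to 25.9%. The means were 22.4% ± 0.328 and 22.7% ± 2.19 (SD, n = 2 each, exact permutation p = 1.00). Spen, a distant 1p36 candidate and transcriptional repressor, lay at 854 and 751 RPM in Df and at 414 and 999 in +129.

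Across 80 kb windows, 0 of 767 tested at viewpoint 11 passed an adjusted p of 0.05 for Df against +129 by edgeR's quasi-likelihood test, and 27 (3.52%) had an unadjusted p under 0.05. The Benjamini-Hochberg adjustment ran over the 3139 windows of viewpoints 1, 2, 11 and 12, of which 74 (2.36%) passed. With the windows of the deleted interval left out, 0 of 2945 windows of the 4 viewpoints passed. Of the 27, 24 (3.13% of those tested) were lower in Df, 16 of them among the 48 windows of the deleted interval, and 3 (0.391%) were higher, 1 of them in the first Mb of the flank. DESeq2 called 12 windows of viewpoint 11, 11 lower and 1 higher, with 8 of the lower ones in the interval, and 4.68% of the windows of the 4 viewpoints. Counts of captured fragments in place of reads gave 9 calls in edgeR, all lower and in the interval, against 3.96% over the 4 viewpoints. With the purification as a replicate block, edgeR called 1 window, in the interval, against 2.61% over the 4 viewpoints. The median log2 fold change was -2.97 over the interval, 0.66 over 12 windows of the first flank Mb, 0.14 over 13 of the second and -0.09 over all 767. The median standard error in the first flank Mb was 1.10. Without the 129S5 libraries of E71 and E117, these 12 windows had a median of 1.83 and 12 of 12 above 0, against -0.41 over the 908 tested then, and 0 passed. That fit holds 1 Df and 1 +129 library, so its spread comes from the C57Bl6 groups alone.

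The window closest to the threshold was chr4:150720001-150800000 in Camta1, with a log2 fold change of -6.31 ± 1.85 (SE) and an edgeR adjusted p of 0.151. It held 5.97 and 8.81 RPM in Df, 465 and 886 in +129, and 179 to 2070 on C57Bl6. Its adjusted p rests on the adjustment over the 4 viewpoints. Adjusted over viewpoint 11 alone, the smallest edgeR adjusted p of any window was 0.995. For +DBl6 against +Bl6, 0 of 767 windows passed and 6 (0.782%) had an unadjusted p under 0.05 in edgeR. Testing whether the change on 129S5 differed from that on C57Bl6, 0 windows of viewpoint 11 passed in edgeR, against 1.75% over the 4 viewpoints, and 13 (1.69%) had an unadjusted p under 0.05. A window that did not pass is not shown to be unchanged.

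The local scaling exponent, the slope of log captures per base against log distance at 100 kb, served the study as a measure of chromatin compaction, with steeper slopes for a less compact fiber. It was -1.10 in Df E71, -1.28 in Df E98, -0.88 in +129 E117 and -1.28 in +129 E118. The C57Bl6 values were -1.22 and -1.34 in E71 and E98 and -0.84 and -1.23 in E117 and E118. Both libraries of line E117 thus had the shallowest slopes, and Df E98 and +129 E118 differed by -0.01. That small difference depended on the fit. With the downstream side only, the slopes were -1.87 in Df E98 and -1.33 in +129 E118, and -1.51 and -1.42 on C57Bl6 in the same lines. With the upstream side only they were -1.72 in Df E98 and -1.99 in +129 E118, and with 8 degrees of freedom -1.82 and -1.56. The one-sided fits held no sequence beyond the deletion. The main fit and the fit with 8 degrees of freedom placed that sequence at its distance on the intact chromosome. With that distance shortened by the deleted length for Df, the slopes were -1.16 in Df E71 and -1.33 in Df E98, against -1.28 in +129 E118. In the main fit the means differed by -0.12 (exact permutation p = 0.667, n = 2 each).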

How the data were processed

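Count files of 8 libraries of viewpoint 11 were analysed, with 24 of viewpoints 1, 2 and 12 used to locate the interval and to adjust p-values. The other 64 libraries and 16 tables of the authors' differential regions, which hold their own comparisons, were not used. The authors gave each pair to an allele by a strain base, trimmed captured reads to 30 bases, aligned them with Bowtie to HindIII ends of mm9 (up to 3 mismatches, unique hits), and deposited raw read counts per fragment. Low-read fragments can carry PCR or allele-assignment error, and no molecular identifiers were used.

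Groups came from the labels. The interval was the binomial change-point fit to captures (at least 5 reads) between 148 and 155.5 Mb. Shares left out 20 kb around the viewpoint fragment. Windows of 80 kb with at least 10 reads in 50% of libraries were tested with edgeR 4.0.16 (TMM, 4 groups, quasi-likelihood) in R 4.3.3, with DESeq2 1.42.0 as an alternative, after tests on simulated data. Other values used exact two-sided permutation tests in scipy 1.17.1, whose smallest p was 0.333. The exponent came from a spline with 4 degrees of freedom. Lines E71 with E117 and E98 with E118 were paired by PCR purification, per the study's methods and not the labels.

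Named loci were the genes nearest the viewpoint and both boundaries, those of 5 lists (monosomy 1p36, tumour suppressor, TNF receptor, Hes, and metabolism and growth genes), and those at the most captured flank fragments. Of these lists, 1 gene is not reported here. The members and lists were chosen with earlier results of these data known. Gene positions are of GENCODE vM1 on NCBIM37, whose 48319 HindIII sites all matched the deposited fragment ends.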

Additional observations from a re-analysis of the deposited data

Results flagged for a closer look

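The share of reads in the 4 Mb upstream flank moved in opposite directions on the 2 alleles in both pairs of lines. On 129S5 the Df line exceeded its control by 1.79 percentage points for E71 against E117 and by 3.27 for E98 against E118, and on C57Bl6 the differences were -0.074 and -0.192. The flank from 1 to 2 Mb did the same, with an excess of 1.12 percentage points for Df E98 and a smaller excess for Df E71 on 129S5, and -0.334 and -0.105 for E71 and E98 on C57Bl6. The Kif1b locus, which lies in that stretch, differed by 567 and 4833 RPM on 129S5 and by -2494 and -1555 RPM on C57Bl6. Pex14 in the same stretch differed by 510 and 1309 RPM on 129S5 and by -37.7 and -344 RPM on C57Bl6, and Slc2a7, nearer the deletion, by 328 and 689 RPM and by -150.0 and -523 RPM. In the other direction, the deleted Kcnab2 locus differed by -24.4 and -803 RPM on 129S5 and by 355 and 224 RPM on C57Bl6, and Tnfrsf18, toward the chromosome end, by -28.5 and -893 RPM and by 126 and 103 RPM. These differences between alleles were not tested. They carry the limit that +129 E117 shared captured fragments with Df E71, and that +Bl6 E117 shared 64.3% of its fragments before 140 Mb with +DBl6 E71, on which the C57Bl6 differences of that pair rest.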

How the results depend on the processing

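The lower share of the deleted interval and the higher share of the upstream flank in Df kept their directions under all alternatives run. Leaving out 1 library at a time, the difference of means ranged from -7.21 to -0.98 percentage points for the interval and from 0.68 to 4.39 for the flank, and for both the smaller end was reached without +129 E118. Without the fragments that E71 and E117 shared, an alternative chosen after seeing the data, they were -9.35 and 8.82, but removing shared fragments sets these 2 libraries apart by construction, so this supports no direction. The retained side changed sign without the interval in the denominator (-0.50), and ranged from -1.19 to 5.68 with 1 library left out, being negative without +129 E118. With reads capped at the 99th percentile it was 13.9, and the far chromosome difference -7.27. The difference of the far chromosome share, -0.30, became 0.64 with a viewpoint zone of 100 kb and 0.021 after subtracting reads expected from the other allele, and ranged from -1.84 to 1.25 with 1 library left out. That of the exponent ranged from -0.32 to 0.082 likewise, being positive without +129 E117, and was -0.47 with the downstream side only and -0.53 with the upstream side only. In the upstream fit +129 E117 had a slope of -0.01. Df E98 against +129 E118 went the other way there, with slopes of -1.72 and -1.99. The cause was not tested in any of these cases. Within each purification (replicate block), the differences for E71 against E117 and E98 against E118 were -1.09 and -7.10 for the interval, 1.79 and 3.27 for the flank, -2.31 and 6.79 for the retained side, and 1.49 and -2.08 for the far chromosome.

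Windows called for Df against +129 numbered 12 with DESeq2, 9 with fragment counts, 1 with the replicate block and 2 with a Mann-Whitney test per window and line pair, and 0 under the other 13 alternatives, each of the 4 left-out libraries included. The comparison of the change between alleles gave 2 with DESeq2, 3 with fragment counts and 1 with the MEF line as a block, and 0 under 13. Of 49 named loci, 12 changed sign under at least 1 of 4 alternatives, among them Casz1, Mtor, Ski and Spen. With 2 lines a group, no single share could pass the threshold.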
